A study of Homo sapiens with 6 samples.

Results

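The replacement histone variant genes described here are 9 genes whose transcripts carry poly(A) tails: H2AFZ, H2AFV, H2AFX, H2AFY, H2AFY2 and H2AFJ for variants of H2A, H3F3A and H3F3B for H3.3, and H1FX for a linker histone. They were taken by their older symbols from a table of 37887 rows of gene symbols. The libraries come from BT-549 cells, an established triple-negative breast cancer (TNBC) line. By the series design, the cells stably carry a doxycycline (DOX)-inducible shRNA against PBRM1, a bromodomain protein of the PBAF form of the SWI/SNF chromatin remodeler. The 3 control libraries came from cells given the vehicle, 0.1% DMSO, and the 3 shPBRM1 libraries from cells given DOX at 500 ng/ml. The sample titles call the first group control shRNA, whereas the series design describes the same tet-PBRM1 shRNA cells without DOX, and under either account what DOX does and what loss of PBRM1 does cannot be told apart. By the titles, the groups would also differ in the shRNA that the cells carry, which cannot be told apart from loss of PBRM1 either. RNA was prepared with a stranded mRNA kit from cells cultured in triplicate in 1 cell line, and nothing in the labels says that the cultures were independent, so that p-values measure the spread between these libraries only.

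Most histone genes are expressed in S phase, and their mRNAs end in a stem-loop in place of a poly(A) tail. The replacement genes differ in that their mRNAs are polyadenylated and are made through the cell cycle, so that their proteins can replace the S-phase histones in chromatin at any time. H2AFX is known to produce both kinds of mRNA. H2A.Z, from H2AFZ and H2AFV, marks nucleosomes beside transcription start sites, and H3.3, from H3F3A and H3F3B, is laid down at active genes and at repeats. H2A.X, from H2AFX, is the histone that is phosphorylated to γH2AX at DNA breaks. MacroH2A, from H2AFY and H2AFY2, carries a large extra domain and is linked to silent chromatin. H2A.J has been tied to senescent cells. H1FX encodes H1X, a linker histone, which binds where DNA enters and leaves the nucleosome.

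Total counts were between 36429395 and 65096297 per library, and the detection floor of 3 counts was 0.0461 to 0.0824 CPM, counts scaled to the library total. PBRM1 had 5870, 7619 and 8118 counts in the control and 2598, 1591 and 2657 counts in the shPBRM1 libraries (log2 fold change -1.91, SE 0.027, adjusted p = 9.98e-23 by the edgeR quasi-likelihood test). Of the markers of the labelled cell line, VIM, ZEB1, CDH2, FN1 and SPARC had between 5410 (ZEB1) and 196571 counts (SPARC) in the libraries, and VIM and CDH2 were higher and the other 3 lower in shPBRM1 cells. Of the receptor and epithelial genes, ESR1 had no more than 2, PGR no more than 12 and EPCAM no more than 8 counts in any library, but ERBB2, a receptor gene whose amplification defines another subtype, had between 1906 and 3161 counts (log2 fold change -0.035, adjusted p = 0.469), and CDH1, E-cadherin, fell from between 186 and 271 to between 58 and 110 counts (log2 fold change -1.73, adjusted p = 9.58e-10). Of the leukocyte genes, CD3E was at 0 in every library, PTPRC fell from between 26 and 44 to between 4 and 12 counts (log2 fold change -2.55, adjusted p = 6.35e-06), and CD14 rose from between 9 and 23 to between 29 and 44 counts (log2 fold change 1.0, adjusted p = 0.0160). PTPRC passed the filter on low counts through the control libraries alone, so that a difference was built into its being tested. The endothelial genes PECAM1, VWF and CDH5 together summed to between 0.188 and 0.496 CPM in the control and between 0.0257 and 0.0941 CPM in the shPBRM1 libraries. The part of these markers in the results was not tested. In these bulk samples, fewer cells that express a gene and less of its RNA per cell cannot be told apart.

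The variant genes differed between the control and shPBRM1 libraries in both directions. H2AFV, H2AFZ, H3F3A, H2AFX and H2AFY rose, and H2AFY2, H1FX, H3F3B and H2AFJ fell. All 9 genes had an adjusted p under 0.05, as did 64.7% of the 15450 tested genes. Of the 9, 5 were higher, where 31.5% of all tested genes were higher, and 4 were lower, where 33.2% of all were lower. With a fold change over 2 as well, 1 gene (H2AFV) was higher against 2.87% of all tested genes, and 1 gene (H2AFY2) was lower against 9.68%. The normalized values of the groups did not overlap for any of the 9 genes, which was the case for 68.3% of all tested genes. All 9 genes passed the filter on low counts, but H2AFY2 was above its minimum in the control libraries alone, so that a difference was built into its passing. The median log2 fold change was 0.37 for the 9 genes, the value of H2AFY, and -0.0080 for all tested genes. The smallest change that passed was that of H2AFJ, 1.11-fold. Against a fold change of 1.2 (edgeR's glmTreat), 5 of the genes were higher, with 17.3% of all genes, and 2 were lower, with 21.8% of all genes. The 2 genes that no longer passed were H2AFJ and H3F3B.

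**Figure D1:**
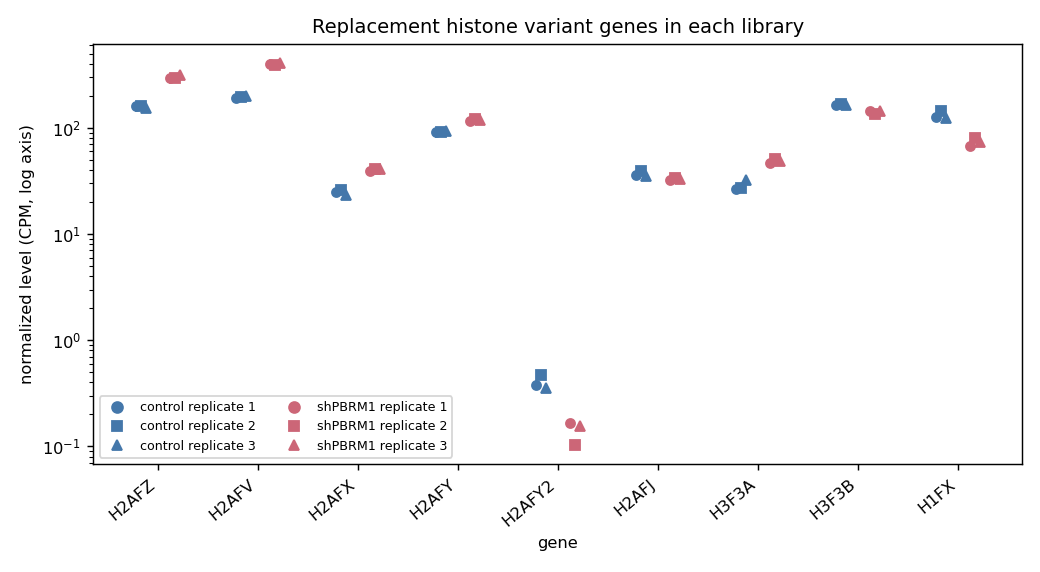
Normalized level in CPM (log axis) of the 9 variant genes in each of the 3 control and 3 shPBRM1 libraries, with 1 point per library and a marker shape per replicate number. H2AFZ and H2AFV rise by about the same distance, H1FX falls, and H2AFY2 lies below 0.5 CPM in every library.

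**Figure D2:**
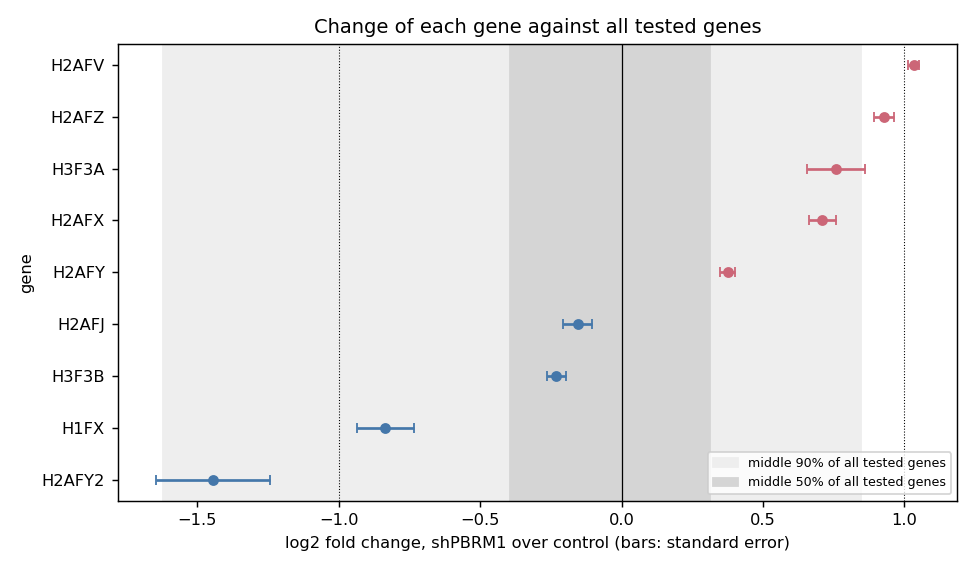
Log2 fold change, shPBRM1 over control, of each gene with its standard error, over grey bands that hold the middle 50% and 90% of all 15450 tested genes; dotted lines mark a fold change of 2. H2AFV and H2AFZ lie above the outer band, which ends at 0.85, whereas H2AFJ and H3F3B lie within the inner band.

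The linker histone gene H1FX, on chromosome 3 from 129314771 to 129316277 on the minus strand (GRCh38, GENCODE v29), fell. Its levels were 128, 143 and 123 CPM in the control and 67.4, 80.6 and 73.2 CPM in the shPBRM1 libraries. The control libraries were spread, but the highest shPBRM1 library remained below the lowest control library. The mean went from 131 ± 10.4 to 73.7 ± 6.64 CPM (SD, n = 3 each; log2 fold change -0.84, SE 0.099, adjusted p = 2.25e-12). An antisense gene, H1FX-AS1, shares 345 bases (22.9%) of its exons, and whether reads were counted by strand is not given in the sources used here. H1FX-AS1 had between 34 and 90 counts in each library, against at least 3138 for H1FX.

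The genes of H2A.Z rose together. H2AFZ, on chromosome 4 from 99948086 to 99950388 on the minus strand, had levels of 161, 159.6 and 155 CPM in the control and 293, 297 and 315 CPM in the shPBRM1 libraries. H2AFV, on chromosome 7 from 44826791 to 44848083 on the minus strand, had 192, 197 and 198 CPM in the control and 398, 394 and 408 CPM in the shPBRM1 libraries. For both genes, all shPBRM1 libraries were well above all control libraries. H2AFZ had a mean of 159 ± 3.23 CPM (SD, n = 3) in control and 302 ± 11.6 CPM (SD, n = 3) in shPBRM1 cells (log2 fold change 0.93, SE 0.036, adjusted p = 1.01e-15). H2AFV had 196 ± 2.98 CPM (SD, n = 3) in control and 400.0 ± 7.45 CPM in shPBRM1 cells (SD, n = 3; log2 fold change 1.03, SE 0.020, adjusted p = 1.10e-16), just past the fold change of 2. It was no longer past it when libraries were scaled by their size alone, with a log2 fold change of 0.98. The summed level of both genes was 353, 356 and 353 CPM in the control and 692, 690.1 and 723 CPM in the shPBRM1 libraries, a log2 difference of 0.99 (exact two-sided permutation test, p = 0.1). Of all tested genes, 3.90% had a higher log2 fold change than H2AFZ and 2.82% a higher one than H2AFV.

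These genes encode nearly the same protein from coding sequences that differ at 75 of 384 bases (80.5% identity, stop codon left out), and their longest shared run is 23 bases, so that no 50-base read could match both exactly. Some reads could still be shared with processed copies. Of the 50-base windows of the principal transcript, 7.85% for H2AFZ and 14.8% for H2AFV occur in a transcript of another gene, the pseudogene H2AFZP3 and the antisense gene AC097460.1 for H2AFZ and the pseudogene H2AFVP1 for H2AFV. AC097460.1 shares 223 bases (9.68%) of the exons of H2AFZ. H2AFZP3 had 12, 16 and 14 counts in the control and 33, 12 and 34 in the shPBRM1 libraries, and H2AFVP1 had no more than 17 counts in any library, against at least 6017 for either parent gene. With the counts of all such pseudogene rows added to their parents, the log2 fold changes were again 0.93 and 1.03.

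The within-library ratio of H2AFZ to H2AFV counts was 0.839, 0.811 and 0.784 in the control and 0.737, 0.754 and 0.772 in the shPBRM1 libraries. The lowest control library and the highest shPBRM1 library were close, and the groups did not overlap. The difference of the mean log2 ratio was -0.11 (standard error 0.034, exact two-sided permutation test, p = 0.1, which no comparison of 3 with 3 libraries can go below). Such a ratio does not depend on how libraries are scaled to each other.

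H2AFX, on chromosome 11 from 119093854 to 119095467 on the minus strand, rose from a lower level. It had 24.6, 26.0 and 23.3 CPM in the control and 39.5, 40.6 and 40.9 CPM in the shPBRM1 libraries. The shPBRM1 libraries lay close together and above all control libraries. Mean H2AFX went from 24.7 ± 1.36 to 40.4 ± 0.748 CPM (SD, n = 3 each; log2 fold change 0.71, SE 0.048, adjusted p = 8.76e-11). Since poly(A)-tailed and stem-loop transcripts of H2AFX share a counted row, the counts do not separate them. Relative to H2AFZ in the same library, H2AFX went from 0.153, 0.163 and 0.150 in the control to 0.135, 0.137 and 0.130 in the shPBRM1 libraries, a difference of -0.22 in the mean log2 ratio (standard error 0.042, exact two-sided permutation test, p = 0.1). These are ratios of counts, which are not corrected for transcript length.

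The genes of H3.3 moved in opposite directions. H3F3A, on chromosome 1 from 226061851 to 226072001 on the plus strand, had levels of 26.3, 27.2 and 32.5 CPM in the control and 46.6, 50.6 and 48.7 CPM in the shPBRM1 libraries. Control replicate 3 stood above the other control libraries but below all shPBRM1 libraries. The mean went from 28.7 ± 3.38 to 48.6 ± 1.97 CPM (SD, n = 3 each; log2 fold change 0.76, SE 0.10, adjusted p = 3.35e-10). H3F3B, on chromosome 17 from 75776434 to 75785893 on the minus strand, had 163, 169 and 164 CPM in the control and 144, 135 and 143 CPM in the shPBRM1 libraries. Its groups did not overlap and were apart relative to their spread, but the fall was small relative to the level of the gene. The mean went from 165 ± 3.3 to 141 ± 4.96 CPM (SD, n = 3 each; log2 fold change -0.23, SE 0.034, adjusted p = 6.74e-06).

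The ratio of H3F3A to H3F3B counts was 0.161, 0.161 and 0.199 in the control and 0.323, 0.374 and 0.340 in the shPBRM1 libraries, so that every shPBRM1 library had more H3F3A relative to H3F3B than every control library. The difference of the mean log2 ratio was 1.0 (standard error 0.12, exact two-sided permutation test, p = 0.1). In contrast, the summed CPM of both genes was 189.5, 196 and 196 in the control and 191, 186 and 192 in the shPBRM1 libraries, with overlapping groups (log2 difference -0.035, exact two-sided permutation test, p = 0.3). Per kilobase of the principal transcript, where the shorter H3F3A transcript weighs more, the sums were 83.0 ± 2.48 and 89.2 ± 0.752 CPM per kb (SD, n = 3), a log2 difference of 0.10 (p = 0.1, exact permutation test). A difference of the summed H3.3 transcripts was thus small in either scale, and its direction changed with the scale.

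H3F3A and H3F3B encode the same H3.3 protein, with coding sequences that differ at 88 of 408 bases (78.4% identity) and a longest shared run of 14 bases. Bases 121 to 240 of both coding sequences from GENCODE v29 are shown, since the genes moved apart, with the 28 bases that differ in capitals.
H3F3A: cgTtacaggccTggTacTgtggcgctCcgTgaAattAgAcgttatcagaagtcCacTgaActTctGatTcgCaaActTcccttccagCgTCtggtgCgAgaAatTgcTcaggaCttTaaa
H3F3B: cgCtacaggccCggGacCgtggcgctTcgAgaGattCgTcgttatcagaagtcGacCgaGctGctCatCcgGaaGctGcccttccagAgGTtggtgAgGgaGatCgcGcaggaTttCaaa
No 50-base read could match both coding sequences exactly, but H3F3A has processed copies. Of its 50-base windows, 28.8% occur in a transcript of another gene, with H3F3AP4 the most frequent, against 8.28% for H3F3B, where the copy is H3F3C. How reads with several matches were counted is not given in the sources used here, and the level of H3F3A is uncertain to that extent. H3F3AP4 had 343, 475 and 506 counts in the control and 822, 522 and 931 counts in the shPBRM1 libraries (log2 fold change 0.52, SE 0.053, adjusted p = 2.63e-06), the same direction as H3F3A. H3F3AP6 and H3F3AP2 had no more than 29 counts in any library. With all pseudogene rows added, the log2 fold change of H3F3A was 0.70 and the difference of the log2 ratio was 0.94. H3F3B shares 214 exonic bases with UNK on the opposite strand, which had between 372 and 659 counts in each library and was also lower (log2 fold change -0.59, adjusted p = 3.11e-06).

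Among the macroH2A genes, H2AFY, on chromosome 5 from 135333900 to 135399914 on the minus strand, rose and H2AFY2, on chromosome 10 from 70052796 to 70112280 on the plus strand, fell. H2AFY had 91.9, 90.8 and 93.6 CPM in the control and 116, 122 and 119.9 CPM in the shPBRM1 libraries. The groups were well apart relative to their spread. Mean H2AFY went from 92.1 ± 1.38 to 119 ± 3.20 CPM (SD, n = 3 each; log2 fold change 0.37, SE 0.026, adjusted p = 1.03e-09). Antisense genes share 30.9% of the exonic bases of H2AFY. C5orf66, which holds most of these, had between 26 and 47 counts in each library, against at least 3429 for H2AFY. H2AFY2 was hardly expressed, with 14, 23 and 18 counts in the control and 10, 4 and 10 counts in the shPBRM1 libraries. These counts are at most a few times the floor of 3 counts, and the 4 counts of shPBRM1 replicate 2 lie just above it. H2AFY2 passed the filter on low counts through the control libraries alone, so that a difference was built into its being tested. The fitted difference (log2 fold change -1.45, SE 0.20, adjusted p = 6.39e-03) depends on few reads. Its SE comes from log2 CPM with a prior count, which shrinks differences at low counts, and may be too small. The summed macroH2A level was therefore that of H2AFY, with a log2 difference of 0.37 in CPM (exact two-sided permutation test, p = 0.1). The ratio of H2AFY to H2AFY2 counts was between 188 and 255 in the control and between 664 and 1059 in the shPBRM1 libraries, with the same limits as H2AFY2. H2AFY2 shares 11 exonic bases with AIFM2 on the opposite strand. AIFM2 had between 336 and 914 counts in each library and was also lower (log2 fold change -0.85, adjusted p = 2.02e-08).

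H2AFJ, on chromosome 12 from 14774383 to 14778002 on the plus strand, changed least. It had 35.9, 39.1 and 34.9 CPM in the control and 32.4, 33.4 and 32.9 CPM in the shPBRM1 libraries. The lowest control library lay just above the highest shPBRM1 library. Mean H2AFJ went from 36.6 ± 2.16 to 32.9 ± 0.532 CPM (SD, n = 3 each; log2 fold change -0.16, SE 0.050, adjusted p = 0.0144). The call was lost without control replicate 2 (log2 fold change -0.11, adjusted p = 0.115) and without shPBRM1 replicate 1 (-0.14, adjusted p = 0.0536).

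**Figure D3:**
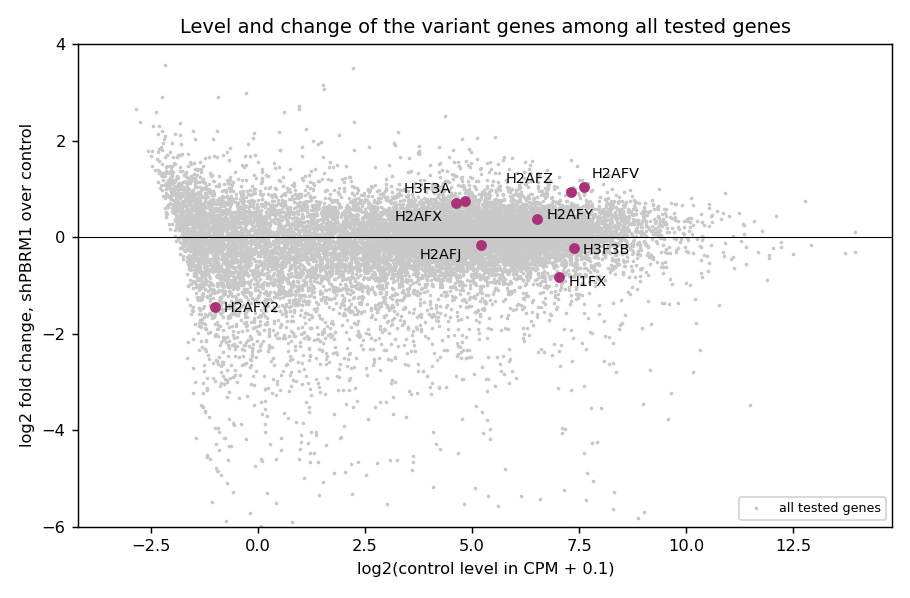
Log2 fold change, shPBRM1 over control, against the control level as log2(CPM + 0.1), for all 15450 tested genes (grey) and the 9 variant genes (labelled points); 49 tested genes lie outside the plotted range. H2AFV and H2AFZ lie above 0.9 among genes of over 100 CPM, and H2AFY2 lies at the low end of the axis.

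To compare levels between genes, CPM were divided by the length in kilobases of the principal transcript in GENCODE v29. In control cells, H2AFV was highest at 260.0 ± 3.96 CPM per kb (SD, n = 3), followed by H2AFZ at 162 ± 3.3 and H1FX at 87.1 ± 6.90 CPM per kb. In shPBRM1 cells, H2AFV was highest at 532 ± 9.91 CPM per kb (SD, n = 3), followed by H2AFZ at 308 ± 11.9 CPM per kb. H3F3B, H2AFJ and H1FX followed, with H3F3B at 52.1 ± 1.83, H2AFJ at 51.1 ± 0.826 and H1FX at 48.9 ± 4.41 CPM per kb (SD, n = 3). Their ranges over the shPBRM1 libraries overlapped, and their order is not resolved. In control cells, the ranges of H3F3B (60.4 to 62.6 CPM per kb) and H2AFJ (54.2 to 60.7) overlapped. H2AFY, H3F3A, H2AFX and H2AFY2 came last in that order in both groups. As a share of the summed CPM per kb of the 9 genes, H2AFV went from 37.3% ± 0.697 to 48.5% ± 0.528 (SD, n = 3) and H2AFZ from 23.2% ± 0.563 to 28.1% ± 0.504 (SD, n = 3). In contrast, H1FX went from 12.5% ± 0.761 to 4.46% ± 0.402 and H3F3B from 8.77% ± 0.0137 to 4.75% ± 0.181 (SD, n = 3). A share falls when other genes of the sum rise, and the level of H3F3B went only from 61.1 to 52.1 CPM per kb. The share of H2AFY fell from 4.74% to 3.90% although its level rose. Shares and order depend on the length used. With the length of all exons, chosen for the shares after seeing the data, H2AFV went from 15.6% ± 0.541 to 24.5% ± 0.521, H2AFZ from 26.0% ± 0.779 to 38.1% ± 0.779 and H1FX from 32.8% ± 1.47 to 14.2% ± 1.13 (SD, n = 3). With that length, H1FX ranked at 1, H2AFZ at 2 and H2AFV at 3 in control cells, and H2AFZ ranked at 1, H2AFV at 2 and H1FX at 3 in shPBRM1 cells.

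**Figure D4:**
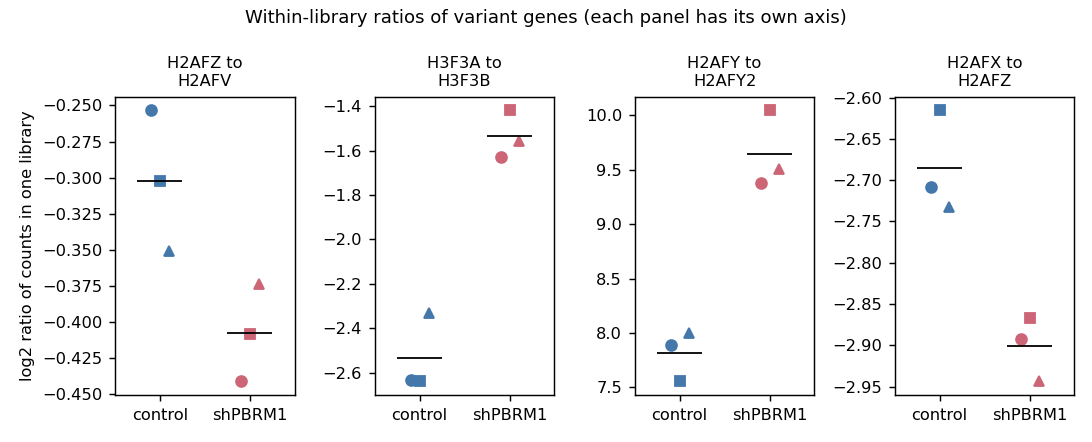
Log2 ratio of the counts of 2 variant genes within each library, with 1 point per library, a marker shape per replicate number as in the plot of levels and a bar at the group mean; each panel has its own axis, which does not start at 0. The groups do not overlap in any panel, and the mean shift is 1.0 for H3F3A to H3F3B, -0.11 for H2AFZ to H2AFV and 1.83 for H2AFY to H2AFY2, where H2AFY2 has few reads and passed the filter through the control libraries alone.

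Promoters are shown for H2AFZ, H2AFV and H2AFX, which rose, and for H3F3B and H1FX, which fell, to set genes that moved apart beside each other. All 9 genes had an entry among the RefSeq promoters of GRCh38.p14, which reach from 250 bases before to 50 bases after the start. Each stretch is the longest run before the start that lies outside all exons of GENCODE v29, with the matches found in it in capitals, on the strand of the gene.
H2AFZ (chr4:99950389-99950489, minus strand): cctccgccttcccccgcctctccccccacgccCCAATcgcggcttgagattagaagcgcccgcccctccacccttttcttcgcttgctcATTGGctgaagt
H2AFV (chr7:44848088-44848337, minus strand): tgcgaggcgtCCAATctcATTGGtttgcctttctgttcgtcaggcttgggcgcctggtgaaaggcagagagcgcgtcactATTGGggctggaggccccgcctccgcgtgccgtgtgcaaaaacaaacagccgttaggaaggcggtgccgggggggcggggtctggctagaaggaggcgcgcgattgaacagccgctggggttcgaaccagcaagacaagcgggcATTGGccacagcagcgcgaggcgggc
H2AFX (chr11:119095468-119095715, minus strand): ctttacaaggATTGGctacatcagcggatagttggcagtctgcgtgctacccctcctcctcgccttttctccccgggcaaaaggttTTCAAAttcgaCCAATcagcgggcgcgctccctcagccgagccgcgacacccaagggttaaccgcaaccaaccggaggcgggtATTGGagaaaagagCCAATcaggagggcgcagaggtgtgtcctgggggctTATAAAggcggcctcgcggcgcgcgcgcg
H3F3B (chr17:75779781-75780029, minus strand): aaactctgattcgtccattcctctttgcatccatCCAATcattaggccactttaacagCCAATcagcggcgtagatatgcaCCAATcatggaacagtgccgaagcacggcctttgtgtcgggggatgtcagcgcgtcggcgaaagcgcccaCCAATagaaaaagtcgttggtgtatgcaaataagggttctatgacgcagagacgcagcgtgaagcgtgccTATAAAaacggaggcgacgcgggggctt
H1FX (chr3:129316287-129316536, minus strand): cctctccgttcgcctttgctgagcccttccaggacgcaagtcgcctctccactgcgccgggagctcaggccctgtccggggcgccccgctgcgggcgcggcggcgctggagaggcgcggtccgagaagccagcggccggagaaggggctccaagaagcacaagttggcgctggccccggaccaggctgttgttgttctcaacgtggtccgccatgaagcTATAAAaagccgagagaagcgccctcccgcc
The letters searched, on both strands, were CCAAT (the CCAAT box), TTTGAA (the cell cycle homology region), GCGGGAA (an E2F site), TATAAA (the TATA box), TGACGTCA (the cAMP response element) and the core of the interferon-stimulated response element. CCAAT was found in the 300-base windows of 7 of the 9 genes, against 34.6% of all 35116 promoters. H2AFV and H2AFX each held 4 matches of CCAAT, as did H3F3B, which fell, whereas H1FX held none. H2AFZ held 3, of which 2 lie in the stretch shown. H2AFZ also held TATAAA and TTTGAA, at positions -31 and 5 relative to the start, both outside the stretch shown. TATAAA was found for 4 genes, at 29 to 31 bases before the start, against 11.5% of all promoters, and TTTGAA for 2 genes, against 15.2%. GCGGGAA was found for 1 gene, H3F3A, against 6.55%. TGACGTCA and the interferon element were found for none of the 9 genes, against 1.85% and 3.57% of all promoters. A match is a description of the letters in this window, and H3F3A and H2AFY have several annotated starts whose windows were counted together.

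Of 20 genes for the exchange of H2A.Z, 4 were higher and 8 were lower at an adjusted p under 0.05, where 31.5% of all tested genes were higher and 33.2% lower, with a median log2 fold change of 0.046. ANP32E, a chaperone that removes H2A.Z, rose from 224 ± 9.67 to 360.0 ± 12.6 CPM (SD, n = 3; log2 fold change 0.69, adjusted p = 1.22e-12). RUVBL2, an ATPase of the SRCAP, TIP60 and INO80 complexes, rose by 0.61 on the log2 scale (adjusted p = 2.92e-13). INO80 and EPC2, a TIP60 complex subunit, had log2 fold changes of -0.51 (adjusted p = 5.30e-10) and -0.41 (adjusted p = 1.53e-05). None of the 20 genes changed by more than a fold change of 2.

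Of 8 genes for the deposition of H3.3, 3 were higher and 3 were lower, near the 31.5% and 33.2% of all tested genes, with a median log2 fold change of 0.022. HIRA, the chaperone at active genes, fell by 0.53 on the log2 scale (SE 0.081, adjusted p = 2.18e-05), and UBN1, its partner, fell by 0.22 (adjusted p = 1.38e-05). DAXX, the chaperone at repeats, had a log2 fold change of -0.58 (adjusted p = 2.94e-04), but its shPBRM1 libraries were widely spread at 30.7 ± 10.5 CPM (SD, n = 3). DEK rose by 0.26 on the log2 scale (adjusted p = 4.01e-06). Of 16 other histone chaperone genes, 14 were higher and 2 were lower, beside the same shares of all tested genes, with a median log2 fold change of 0.40. Among them, ASF1B, the S-phase H3-H4 chaperone, rose by 0.77 on the log2 scale (adjusted p = 1.10e-11), and HJURP, the chaperone of the centromeric H3, by 0.73 (adjusted p = 1.59e-13). RBBP7, which binds H4, and NAP1L1, which binds H2A-H2B, rose by 0.67 (adjusted p = 1.48e-13) and 0.60 (adjusted p = 3.90e-12).

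Most genes listed for proliferating cells were higher in shPBRM1 cells. Of 21 such genes, 17 were higher and 1 was lower, beside 31.5% and 33.2% of all tested genes, with a median log2 fold change of 0.72 and a summed level of 2404.5 to 2483 CPM in the control and 3636 to 3668 CPM in the shPBRM1 libraries. CCNA2, cyclin A, had a log2 fold change of 1.15 (adjusted p = 1.15e-18), AURKA, a mitotic kinase, of 1.12 (adjusted p = 7.65e-18), CCNB2, cyclin B2, of 1.0 (adjusted p = 2.85e-15) and BUB1, a spindle checkpoint kinase, of 0.89 (adjusted p = 2.92e-16). The gene that was lower was MCM6 (log2 fold change -0.22, adjusted p = 1.24e-05). MCM2, MCM3 and MCM7 passed in neither direction, and MCM4 and MCM5 were higher (log2 fold changes 0.30 and 0.35). The part of proliferation in the changes of the variant genes was not tested. The S-phase histone genes, whose mRNAs mostly lack poly(A) tails, were also higher: 55 of 60 tested genes passed the test, beside 31.5% of all tested genes, 0 were lower, and the median log2 fold change was 1.34. Among those with a mean of at least 100 counts, the largest log2 fold changes were 2.08 for HIST1H3B, 1.87 for HIST1H3G, 1.78 for HIST2H3D and 1.72 for HIST1H2AB. Since the libraries were made with an mRNA kit, more S-phase histone transcripts and a larger captured part of them cannot be told apart.

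**Figure D5:**
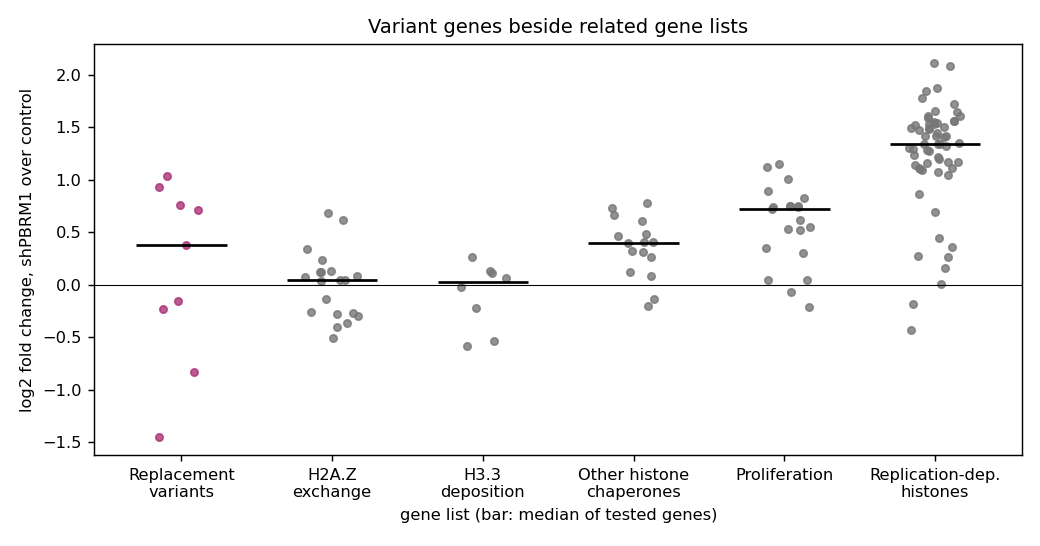
Log2 fold change, shPBRM1 over control, of the tested genes of each list, with 1 point per gene and a bar at the median. The variant genes fall on both sides of 0, from -1.45 to 1.03, the H2A.Z exchange and H3.3 deposition genes center near 0, and the proliferation and replication-dependent histone genes have medians of 0.72 and 1.34.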

How the data were processed

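RNA-seq of 6 BT-549 libraries was analyzed, 3 control and 3 shPBRM1, grouped by sample title; column names without shPBRM1 were taken as control by cell line and replicate number. The values are raw counts by symbol, as deposited. The submitters' processing notes name CASAVA 1.8.2, STAR 2.7.9a, featureCounts, DESeq2 1.24.0 and GRCh38.p7; the annotation, the strand setting and the treatment of reads with several matches are not given in the sources used here. Of the rows, 14 carry dates in place of symbols and were not named.

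The test was that of edgeR 4.0.16 under R 4.3.3 (TMM scaling, filterByExpr, quasi-likelihood F-test, Benjamini-Hochberg adjustment over 15450 genes), and unless another test is named each adjusted p comes from it. SE denotes the standard error of the difference of mean log2 CPM (prior count 2). Ratios used counts with 0.5 added and exact permutation tests (scipy 1.17.1). Replicates of a group differed by more than sampling noise (chi-square per degree of freedom 4.92 to 24.9). The highest values, 21.5 and 24.9, were those of shPBRM1 replicate 1 against the other shPBRM1 libraries. Every other pair was at 7.35 or lower. Same-numbered libraries deviated together (correlations of 0.734, 0.593 and 0.419 across 5622 genes, against -0.671 to 0.464 for other pairs, the highest of which, control 2 with shPBRM1 3, was above the same-numbered pair 3), and the replicate number was fitted as a block as an alternative. Other alternatives were DESeq2 1.42.0, other scalings, filters and thresholds, pseudogene rows added and each library left out. On counts simulated for this comparison, edgeR recovered 196 of 200 genes changed 4-fold among 15399 tested, with 11 false calls. The simulation gave all genes the same dispersion (spread between replicates), and it does not show recovery or false calls at the smaller fold changes reported here.

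The genes and lists were chosen with earlier results of these data known. Of the 10 genes found, 1 is not reported here. Named were the other 9, PBRM1, pseudogene rows averaging 10 counts or more, and per list the 4 most changed genes (fewer where fewer qualified) that passed an adjusted p of 0.05, averaged 100 counts or more and had separate groups; marker genes and overlapping genes are named as checks. The principal transcript is the best-ranked APPRIS transcript, the longest where several tie.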

Additional observations from a re-analysis of the deposited data

How the results depend on the processing

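Of 317 alternative values, 291 counted as unchanged, 2 (H2AFJ) lost the call, 24 moved further and none reversed. Unchanged meant the same direction and call for a fold change, and within 1.5 times the main count for a count. For a share per kb it meant a difference under its SD, and for a ratio only the same direction. The ratio differences between same-numbered libraries could not change and are among the 291. Most that moved were shares per kb with the length of all exons, an alternative chosen after seeing the data. With the replicate block, again 5 of the 9 genes were higher and 4 lower, and the block changed no call of the 9 genes. The log2 fold changes of H1FX, H2AFV and H2AFZ were then -0.83, 1.03 and 0.93. The block raised the genes called higher across the other lists from 94 to 96 and over all genes from 4863 to 4973. It raised those called lower over all genes from 5137 to 5226. For the H3F3A to H3F3B log2 ratio, the mean same-numbered difference was 1.0 (exact sign-flip test, p = 0.25, the smallest p that 3 pairs allow). With 3 libraries per group, such a mean equals the difference of the group means by construction, so that it is no check of that difference. The count of genes higher past a fold change of 2 was 0 with library size only, since H2AFV then lay just under it. The count lower past a fold change of 2 was 0 with a mean of at least 50 counts, which removed H2AFY2. With the fold minimum replaced by glmTreat against a fold change of 1.2, a looser threshold, 5 genes were higher and 2 lower. Requiring an adjusted p of 0.001 left 2 genes lower in place of 4. Over all genes, the filter of at least 50 counts, which tests fewer genes, left 270 higher and 941 lower past a fold change of 2. With each library left out in turn, 5 genes remained higher and between 3 and 4 lower, with 1 gene past a fold change of 2 in each direction, H1FX stayed between -0.89 and -0.77, H2AFV between 1.02 and 1.05, and H3F3A between 0.70 and 0.86. H2AFY2 is limited by depth, with at most 23 counts in any library.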

Other observations

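Of the S-phase linker histone genes, 4 were higher in shPBRM1 cells (the linker genes were chosen after their values were seen). So were 55 of the 60 tested S-phase histone genes, which include them, and 31.5% of all tested genes, whereas H1FX was lower. HIST1H1C had 10461, 14913 and 14209 counts in the control and 39688, 29527 and 45221 counts in the shPBRM1 libraries (log2 fold change 1.29, edgeR adjusted p = 1.79e-16). HIST1H1B, HIST1H1E and HIST1H1D had log2 fold changes of 1.60, 1.10 and 0.28, each at an adjusted p under 0.05, and HIST1H1A had no more than 18 counts in any library. For these genes too, the amount of the transcripts and the part captured by the mRNA kit cannot be told apart.

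Of 14 other variant histone genes, many of them known from testis, 3 passed the filter on low counts and 6 were at 0 in every library. CENPA, the centromeric H3, rose from 23.0 ± 0.136 to 37.7 ± 0.494 CPM (SD, n = 3; log2 fold change 0.71, edgeR adjusted p = 3.67e-11), beside HJURP, its chaperone. H3F3C, a processed copy of H3F3B, had 10, 24 and 32 counts in the control and 18, 10 and 14 counts in the shPBRM1 libraries (log2 fold change -0.87, adjusted p = 0.0628), with overlapping groups. HIST1H1T, a testis linker histone gene, had between 12 and 48 counts in each library, also with overlapping groups (log2 fold change -0.86, adjusted p = 0.0445).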
